A study of Arabidopsis thaliana with 4 samples.

Results

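Photorespiration is the pathway that recycles 2-phosphoglycolate, the product formed when Rubisco fixes oxygen instead of carbon dioxide. The report describes 10 of its enzymes in Arabidopsis thaliana, chosen by locus code: PGLP1, GOX1, GOX2, SHM1, GLDP1, GLDP2, GLDT, HPR1, AGT1 and GLYK. These 10 genes occupied 11 of the 34288 rows of the deposited gene table, because GLYK had a second, short row. All 10 had a usable status in every library and passed the filter of at least 1 FPKM in at least 1 organ. FPKM are fragments per kilobase of transcript scaled to sequencing depth, so levels of different genes can be compared.

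The libraries came from wild-type plants of the accession Col-0, 1 library for each of 4 organs, in a series on long noncoding RNAs. Roots and leaves were taken at 2 weeks from plates with MS medium, and the growth protocol calls the leaf material the aerial part, so it can hold stem, shoot apex and cotyledons too. Flowers and siliques, the seed pods, were taken at 5 weeks from plants in soil. All plants were kept at 22 °C in long days, and the labels give no hour of harvest. With 1 library per organ there was no spread between replicates, and no test or p-value is given. Roots with leaves and flowers with siliques shared age and medium, whereas in the other 4 pairs these differed together with the organ.

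In leaves, photorespiration runs through chloroplasts, peroxisomes and mitochondria. PGLP dephosphorylates phosphoglycolate in the chloroplast, glycolate oxidase (GOX) turns glycolate into glyoxylate and hydrogen peroxide in the peroxisome, and aminotransferases make glycine. In mitochondria, glycine decarboxylase (P-, T-, H- and L-protein) and serine hydroxymethyltransferase (SHM) convert glycine into serine with loss of carbon dioxide and ammonia. AGT1 and HPR1 then convert serine to glycerate in the peroxisome, and glycerate kinase (GLYK) returns it to the Calvin cycle. Glycine decarboxylase and SHM also supply the carbon units carried by folate in tissues without photosynthesis.

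The 3 glycolate oxidase genes are close relatives, and their first coding exons are shown because GOX1, GOX2 and GOX3 had different organ patterns. GOX2 and GOX1 lie next to each other on chromosome 3 in the same direction, 377 bases apart, while GOX3 is on chromosome 4. The sequences are from RefSeq, build TAIR10.1, written 5′ to 3′ on the coding strand, with the bases that differ from GOX1 in capitals.
GOX1: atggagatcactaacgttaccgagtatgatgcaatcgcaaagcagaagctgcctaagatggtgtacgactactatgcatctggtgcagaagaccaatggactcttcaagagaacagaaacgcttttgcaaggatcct
GOX2: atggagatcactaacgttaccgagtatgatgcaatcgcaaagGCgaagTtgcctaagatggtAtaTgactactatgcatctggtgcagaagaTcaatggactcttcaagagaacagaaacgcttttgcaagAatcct
GOX3: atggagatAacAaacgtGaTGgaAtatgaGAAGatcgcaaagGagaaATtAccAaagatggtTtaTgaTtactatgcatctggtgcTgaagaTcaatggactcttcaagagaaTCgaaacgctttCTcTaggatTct
The exons are at chr3:4821804-4821940 (plus strand), chr3:4818667-4818803 (plus) and chr4:10148250-10148386 (minus). Each has 137 bases, of which 7 differ from GOX1 in GOX2 and 26 in GOX3. Over the whole coding sequence GOX1 was 90.9% identical to GOX2 and 76.3% to GOX3, and the longest run of identical bases in the annotated mRNAs was 68 between GOX1 and GOX2. Reads inside such a run cannot be told apart. PGLP1 had a stronger case, since its coding sequence and that of AT5G36790 on the same chromosome were 100% identical over 1089 bases.

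The organs carried the markers of their labels, though the lists were chosen with earlier results of these data known, so this is no independent check. The root markers IRT1, FRO2, CASP1 and PRX44 stood at 79.7 to 374 FPKM in roots and at most 0.546 in leaves. The green tissue markers LHCB2.1, PSAO, PSAH2 and PETE1 stood at 269 to 4266 FPKM in leaves and 1.24 to 20.002 in roots. The flower markers GRP17, PI and PPME1 reached 566, 241 and 258 FPKM in flowers against at most 3.06 in siliques, but AP3 was at 119.8 in flowers and 79.0 in siliques. The seed coat markers BAN, MYB5, TT10 and TT12 stood at 36.7 to 582 FPKM in siliques and at most 10.5 in flowers. Among usable loci the FPKM summed to 646385 to 683958 per library. The number of reads per library is not known here, so depth and counting error cannot be given.

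Roots against leaves asks how far the pathway of the green shoot is present in a non-green organ. Of the 10 enzymes, 8 were at least 2-fold higher in leaves and 0 at least 2-fold higher in roots. Over all 23477 compared loci, 13.4% were at least 2-fold higher in leaves and 23.6% in roots. The median difference in log2(FPKM + 1), roots minus leaves, was -3.62 over the members and 0.34 over all compared loci. This log2 scale is used for all differences below and understates those of low genes. With the further condition that the authors' intervals do not overlap, 1 member, PGLP1, was higher in leaves, against 0.733% of all loci, and 0 in roots, against 0.677%. Of the 40 intervals of the members, 8 had a lower end above 0. Over all compared loci the share by library ran from 11.7% in leaves to 14.6% in flowers. Where the interval of the higher organ starts at 0 the intervals overlap whatever the fold.

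At a 4-fold threshold 8 members were higher in leaves, against 7.42% of all loci, and 0 in roots, against 9.09%.

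**Figure D1:**
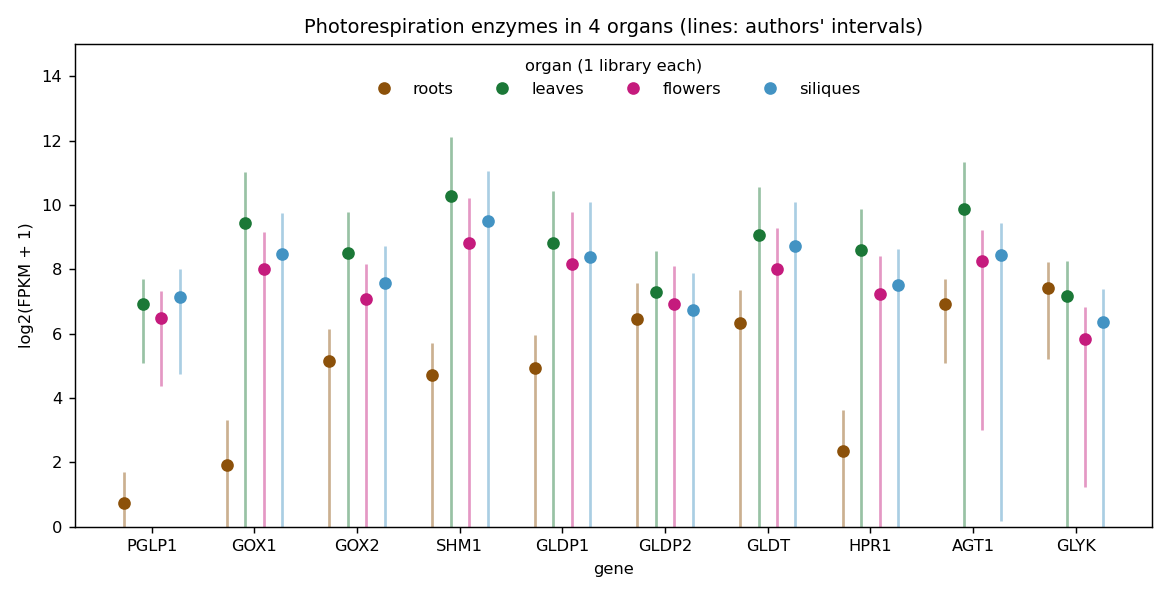
Level of each enzyme as log2(FPKM + 1), 1 point per organ library, with a line for the authors' interval around it. Root points lie lowest for 9 genes, from 0.663 FPKM for PGLP1 to 119.9 for AGT1, and as deposited highest for GLYK at 169 FPKM, an order of roots and leaves that turns with median-of-ratios scaling.

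The first steps of the pathway had the lowest root levels, apart from GOX2. Levels in all 4 libraries are given below in the order roots, leaves, flowers, siliques. PGLP1 (AT5G36700, chromosome 5, 14421635 to 14424490, TAIR10 as in all table positions), the chloroplast phosphatase, was at 0.663, 119.6, 89.4 and 141 FPKM. Its lowest value was in roots and its highest in siliques, and the root interval (0 to 2.26) lay below those of the other 3 organs. AT5G36790 gave 0.667, 120.3, 90.2 and 142 FPKM, and because the copies share their coding sequence, the table's split between them cannot be taken as 2 separate measurements. GOX1 (AT3G14420, chromosome 3, 4821523 to 4824178) was at 2.77, 691, 257 and 353 FPKM. The annotated GOX1 gene overlaps a neighbouring annotated gene, AT3G14430. GOX1 had the largest root to leaf difference of the 10 enzymes, -7.52. GOX2 (AT3G14415, chromosome 3, 4818298 to 4821006) was at 34.2, 363, 135.3 and 190.0 FPKM. It was also lowest in roots, but kept 9.42% of its leaf value there, against 0.400% for GOX1.

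In the peroxisome, AGT1 (AT2G13360, chromosome 2, 5539240 to 5541358), which moves the amino group of serine to glyoxylate, was at 119.9, 929, 302 and 347 FPKM. Although lowest in roots, it was the second highest of the 10 enzymes there. HPR1 (AT1G68010, chromosome 1, 25493197 to 25495988), the reductase that turns hydroxypyruvate into glycerate, was at 4.11, 385, 150.4 and 181 FPKM. Thus neighbouring steps in one compartment differed in what remained in roots, with 12.9% of the leaf value for AGT1 and 1.07% for HPR1.

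GLYK (AT1G80380, chromosome 1, 30217219 to 30220004), the chloroplast kinase of the last step, was at 169, 142, 56.5 and 81.8 FPKM. It was the highest of the 10 enzymes in roots and the lowest in flowers and siliques. Its difference between roots and leaves was 0.25 and went to -0.23 after median-of-ratios scaling and to -0.0029 after upper-quartile scaling, so its direction depends on the scaling. Roots exceeded flowers by 1.56 and siliques by 1.03, the latter under 2-fold in those scalings (0.78 and 0.96). The second row of the code, at 30220115 to 30220612, held 0.519 to 1.29 FPKM and overlaps the 3′ end of the annotated gene.

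The mitochondrial enzymes spanned a wide range. SHM1 (AT4G37930), the main leaf SHM, was at 25.4, 1248, 454 and 722 FPKM, the highest of the 10 enzymes in each of the 3 aerial libraries. The table gives SHM1 the interval 17700703 to 17944047 on chromosome 4, which it lists for 70 rows, while the reference (TAIR10.1) places the gene at 17831731 to 17835017. GLDP1 (AT4G33010, chromosome 4, 15926670 to 15931332), a P-protein, the subunit that decarboxylates glycine, was at 29.7, 446, 286 and 329 FPKM. GLDP2 (AT2G26080, chromosome 2, 11109003 to 11113828), the other P-protein, was at 86.0, 157, 119 and 106 FPKM, the most even of the 10 enzymes over the 4 organs. Its difference between roots and leaves was -0.86 as deposited and past 2-fold with median-of-ratios scaling (-1.34) and upper-quartile scaling (-1.11). GLDT (AT1G11860, chromosome 1, 4001280 to 4003442), the T-protein that passes a carbon unit to folate, was at 79.0, 529, 257 and 423 FPKM. All 4 were lowest in roots and highest in leaves, but the root value was 2.04% of the leaf value for SHM1, 6.66% for GLDP1, 14.9% for GLDT and 54.9% for GLDP2.

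For comparison, the root value of the 4 green tissue markers was 0.322% to 0.469% of the leaf value, close to the values of GOX1 and PGLP1 (0.555%). The other 8 enzymes kept at least 1.07%. Whether green tissue in the root sample contributed to the low values was not tested. In bulk samples, fewer cells that express a gene and less RNA per cell cannot be told apart.

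**Figure D2:**
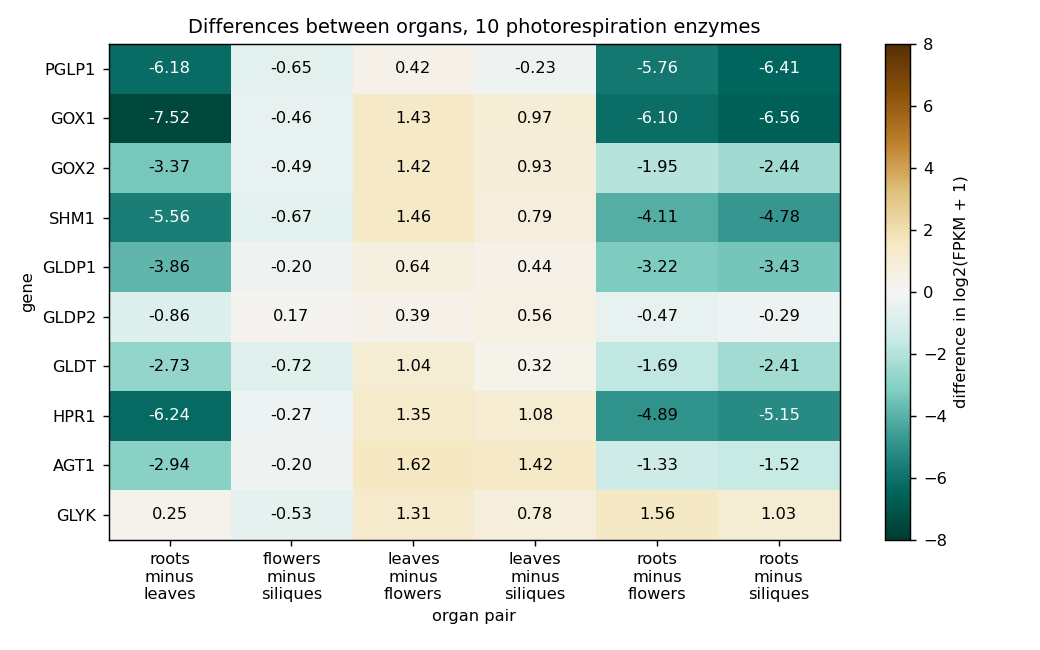
Difference in log2(FPKM + 1) for each enzyme (rows) and organ pair (columns), 1 library per organ. Roots minus leaves runs from -7.52 for GOX1 to 0.25 for GLYK, while flowers minus siliques stays between -0.72 and 0.17. Values are as deposited, and scaling turns the sign of GLYK in the first pair and of GLDP2 in the second.

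Several of these enzymes have partner genes of the same activity, and in roots the balance between partners was different from that in the aerial organs. Shares of summed FPKM are ratios within a library and do not depend on scaling between libraries. Of the FPKM of the 3 glycolate oxidase genes shown above, GOX1 held 4.12% in roots but 64.7% to 65.5% in the aerial organs. GOX2 held 34.2% to 34.8% in the aerial organs and 50.98% in roots. GOX3 (AT4G18360), whose first exon differs most from GOX1, held 44.9% in roots and at most 0.875% elsewhere, with 30.1, 0.841, 3.46 and 2.98 FPKM over the 4 organs. The summed level of the 3 genes was 67.1 FPKM in roots and 1056 in leaves.

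The P-protein genes exchanged places. GLDP1 held 70.5% to 75.7% of the P-protein FPKM in the aerial organs and 25.7% in roots, where GLDP2 held 74.3%. The annotated GLDP1 gene overlaps an annotated neighbour, AT4G33000. SHM1 held 98.0%, 92.7% and 95.6% of the summed FPKM of SHM1 and SHM2 in the aerial organs and 30.3% in roots. SHM2 (AT5G26780), the second mitochondrial SHM, stood at 58.3, 25.03, 35.9 and 32.9 FPKM. HPR1 held 93.1% in leaves and 13.1% in roots, where HPR2 (AT1G79870), a cytosolic reductase at 23.1 to 31.6 FPKM in all 4 organs, held 76.2%.

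Among other enzymes of the pathway some sets changed their leading gene and some did not. PGLP2 (AT5G47760) held 91.6% of the summed FPKM of PGLP1, its copy and PGLP2 in roots and 4.52% in leaves. Its own level was 14.5 FPKM in roots and 11.4 in leaves. Of the ferredoxin-dependent glutamate synthases, which reassimilate the ammonia released from glycine, GLU1 (AT5G04140) stood at 369 FPKM in leaves and 1.79 in roots, and GLU2 (AT2G41220) at 12.3 and 86.6. GLU1 therefore held 96.8% of their sum in leaves and 2.03% in roots. GGT1 (AT1G23310), the glutamate:glyoxylate aminotransferase, was at 1273 FPKM in leaves and 44.1 in roots and kept the larger share in roots, 73.7% against 26.3% for GGT2 (AT1G70580). CAT3 led the catalases in roots and in leaves, with 68.3% and 70.9%. Of the summed FPKM of AGT1, AGT2 and AGT3, AGT1 held 51.9% in roots and 96.0% in leaves. AGT2 and AGT3 are counted below among genes outside the leaf pathway, so this is not a share among partner genes. The peroxisomal malate dehydrogenase PMDH1 (AT2G22780) was at 62.3 FPKM in roots and 26.3 in leaves, while the locus that joins PMDH2 (AT5G09660) with AT5G09670 and AT5G09672 was at 18.6 and 693.

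**Figure D3:**
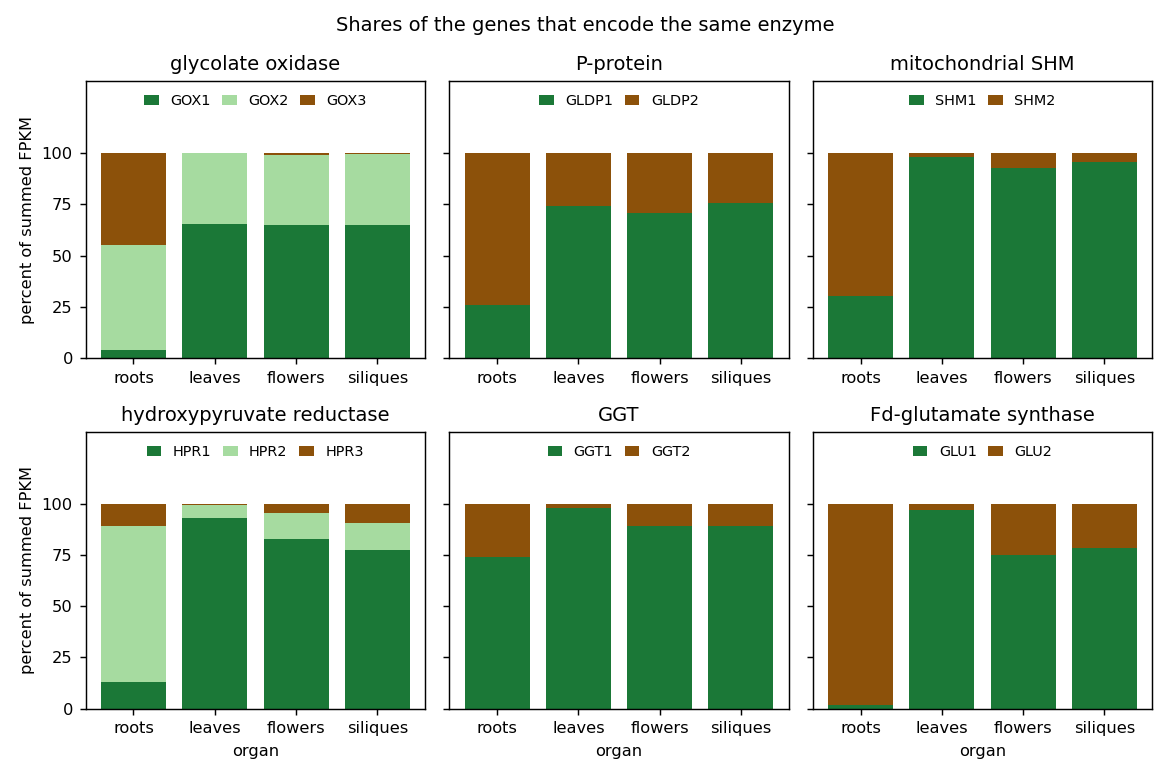
Share of each gene in the summed FPKM of its enzyme (vertical axis, percent) in the 4 organ libraries. Of the 6 enzymes plotted, GGT is the one where the gene leading in leaves also led in roots (GGT1, 73.7%).

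Within glycine decarboxylase the subunits did not scale together. The P-protein genes summed to 116 FPKM in roots and 603 in leaves, and the T-protein stood at 79.0 and 529. The H-protein carries the reaction intermediate between the other subunits. Its genes GDCH1 (AT2G35370) and GDCH3 (AT1G32470) summed to 9.83 FPKM in roots and 518 in leaves, whereas the locus that joins another H-protein gene, AT2G35120, with AT2G35130 stood at 165 and 28.0. The share of each gene in that joined locus is not known. The L-protein genes mtLPD1 (AT1G48030) and mtLPD2 (AT3G17240), which also serve pyruvate dehydrogenase and related complexes, summed to 155, 137, 148 and 161 FPKM. Their sum was thus nearly level over the organs, although mtLPD1 held 78.1% of it in leaves and mtLPD2 61.0% in roots.

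The wider pathway was counted over fixed lists of 33 further genes, of which 26 are enzymes and 7 transporters. The enzymes listed include HAOX1 (0.79) and HAOX2 (-0.76), both under 2-fold as deposited, whose part in the pathway was not tested. Of the 23 enzymes with a row of their own, 8 were at least 2-fold higher in leaves, 5 at least 2-fold higher in roots and 10 neither (median -0.76). The share higher in leaves was 34.8%, against 13.4% of all compared loci, and that higher in roots 21.7%, close to the 23.6% of all loci. Those higher in leaves were GLU1, GDCH1, the PGLP1 copy, GGT1, GDCH3, the chloroplast glutamine synthetase GLN2 (965 FPKM in leaves and 96.8 in roots), and the catalases CAT3 and CAT2, which remove the hydrogen peroxide made by glycolate oxidase. Those higher in roots were GOX3, GLU2, mtLPD2, PMDH1 and SHM2. The PGLP1 copy among the 8 is not a measurement separate from PGLP1, which was already counted with the members. Median-of-ratios scaling gives 14 higher in leaves and 4 in roots when the 3 joined loci are counted too, against 10 and 6 as deposited. SHM2 (0.72) and PMDH1 (0.75) are then under 2-fold. The same scaling took the part of all 2-fold calls that was higher in roots from 63.7% to 47.5%. The shares of 13.4% and 23.6% therefore do not apply to the scaled counts.

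Of the 7 transporters, 3 were higher in leaves, 2 higher in roots and 2 neither (median -0.95). As shares these were 42.9% and 28.6%, the latter again near the 23.6% of all loci. PLGG1 (AT1G32080), which exchanges glycolate and glycerate across the chloroplast envelope, was at 0.925, 227, 149.6 and 230.1 FPKM. The dicarboxylate carriers DIT1 and DIT2.1 had differences of -1.89 and -1.003. BASS6 (AT4G22840), a second glycolate carrier, was higher in roots, at 14.5 FPKM against 4.64, as was the mitochondrial carrier UCP1, at 75.7 against 30.3. Median-of-ratios scaling gives 5 transporters higher in leaves and 1, BASS6, in roots, and the as-deposited shares of all loci do not apply there either. PLGG1 and BASS6 thus differed in opposite directions, as did GOX1 and GOX3.

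Serine hydroxymethyltransferases and aminotransferases outside the leaf pathway had a positive median difference, 1.26. Of 8 such genes (SHM3 to SHM7, AGT2, AGT3 and PYD4), 5 were at least 2-fold higher in roots and 0 in leaves as deposited. Over all compared loci these shares were 23.6% and 13.4%. After median-of-ratios scaling the counts were 3 and 0, and the sign of SHM3, SHM6 and SHM7 turned. Of all 2-fold calls 47.5% were then higher in roots, against 63.7% as deposited. The cytosolic SHM4 (AT4G13930) had 193, 64.0, 166 and 276 FPKM.

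Set beside related pathways, the photorespiratory enzymes lay between carbon fixation and the glyoxylate cycle in roots against leaves. The median was -6.67 over 17 carbon fixation genes, all 17 of them at least 2-fold higher in leaves. Of all compared loci 13.4% were at least 2-fold higher in leaves and 23.6% in roots. RBCS1A and RCA had the status HIDATA in place of OK in leaves, RBCS1A in siliques too, and were left out. The 0 listed there is not a measured level, since RBCS1A stood at 4855 FPKM in flowers and RCA at 2231 in siliques. A further list held 5 genes of the glyoxylate cycle and the step beyond it, which also turn over glyoxylate or its products but serve fat breakdown. Its median was 1.66, with 4 at least 2-fold higher in roots. These were ICL, PCK1, ACO3 and CSY3. ICL was low, at 6.08 FPKM in roots (interval 0 to 14.1) and 0.314 in leaves. PCK1 stood at 410 and 89.7 FPKM and ACO3 at 217 and 67.7. PCK1 is listed with the same wide interval as SHM1. Whether the cycle itself differed between the organs was not tested. One of these, CSY3 (1.10), was under 2-fold with median-of-ratios (0.64) and upper-quartile scaling (0.86), and a joined locus that holds MLS was left out of the count. The difference between the lists was not tested.

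**Figure D4:**
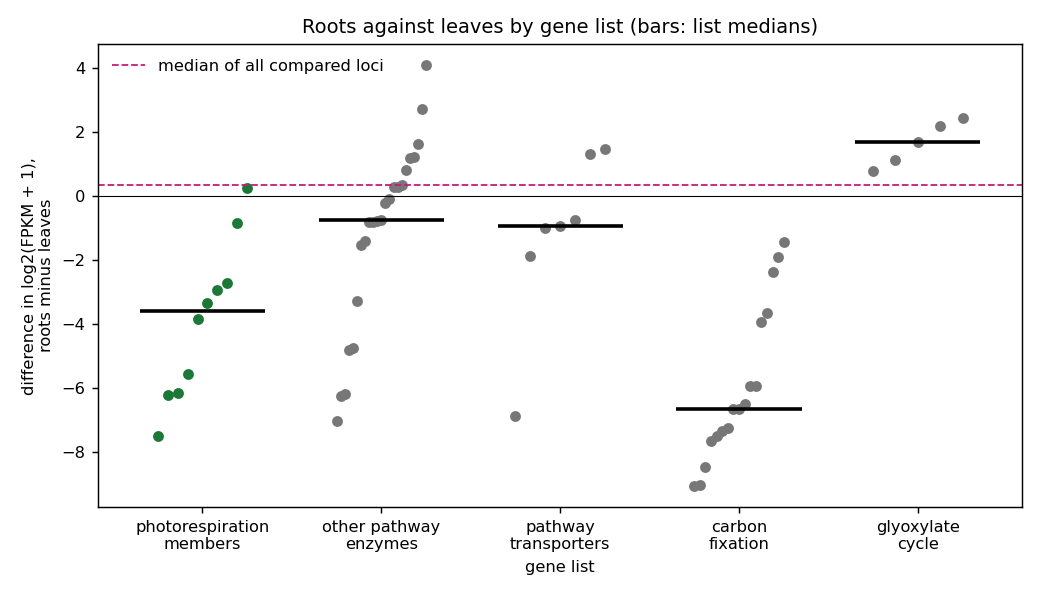
Difference in log2(FPKM + 1), roots minus leaves, for each gene with its own row in 5 lists, 1 point per gene, with the list median as a bar and the median of all compared loci as a dashed line. Members range from -7.52 to 0.25, around a median of -3.62.

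Flowers against siliques compares the flower with the fruit that follows it, at the same age in soil. No member (0 of 10) was at least 2-fold different. Over all compared loci 13.5% were at least 2-fold higher in flowers and 8.42% in siliques. At 4-fold the shares of all loci were 4.94% and 3.63%, and with separate intervals 0.226% and 0.166%, with 0 members in each. The median over the members was -0.47 and over all loci 0.19. By value, 9 of the 10 were higher in siliques, led by GLDT (-0.72), SHM1 (-0.67), PGLP1 (-0.65) and GLYK (-0.53). Of all 23477 compared loci, 7935 were higher in siliques by value and 15446 in flowers. GLDP2 was the exception at 0.17, and it went to -0.09 after median-of-ratios scaling. Green tissue markers were also higher in siliques in 4 of 4 cases, with a median of -0.98, and their part in these values was not tested. Among the other pathway genes the catalase CAT3 stood out, at 245 FPKM in flowers and 1089 in siliques, and HPR3 (AT1G12550) at 8.001 and 21.8.

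Leaves against flowers and leaves against siliques place the reproductive organs beside the seedling shoot, with age and medium differing too. Of the members, 7 were at least 2-fold higher in leaves than in flowers and 0 lower. Over all loci these shares were 7.79% and 21.6%. At 4-fold they were 2.42% and 8.09%, and with separate intervals 0.175% and 0.562%, with 0 members in each. All 4 green tissue markers were at least 2-fold higher in leaves than in flowers (median 1.98), as were 2 of 4 against siliques (median 1.002), and their part in the members' values was not tested. The largest differences were those of AGT1 (1.62), SHM1 (1.46), GOX1 (1.43) and GOX2 (1.42), and the smallest those of GLDP1 (0.64), PGLP1 (0.42) and GLDP2 (0.39). In siliques the values of 9 members were nearer to leaves than in flowers, the exception being GLDP2 (67.4% of the leaf value in siliques and 76.1% in flowers). Only AGT1 (1.42) and HPR1 (1.08) were at least 2-fold higher in leaves, 2 of 10, and 0 were lower, against 8.4% and 16.9% of all loci. At 4-fold these were 2.77% and 7.07%, and with separate intervals 0.145% and 0.43%, with 0 members in each. PGLP1 was the only member higher in siliques than in leaves, with a difference of -0.23, which came to -0.0025 with median-of-ratios scaling. Scaling bears on the count for siliques, which was 4 with upper-quartile scaling or with sums set equal and 6 with median-of-ratios scaling. The background moved too. Of all 2-fold calls, 33.2% were higher in leaves than in siliques as deposited. This part was 41.2% with upper-quartile scaling, 37.0% with sums set equal and 43.8% with median-of-ratios scaling. In flowers GOX1, GOX2, SHM1, HPR1, AGT1 and GLYK kept 32.5% to 39.9% of their leaf values, GLDT 48.6%, GLDP1 64.0%, PGLP1 74.8% and GLDP2 76.1%. In both organs AGT1 was the member that kept least.

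Roots against flowers and roots against siliques gave the same counts as deposited, 8 members at least 2-fold lower in roots and 1, GLYK, at least 2-fold higher. With median-of-ratios or upper-quartile scaling GLYK was no longer past 2-fold against siliques, leaving 0 higher in roots there, while the counts against flowers stayed at 8 and 1. Over all loci, 23.8% were higher in flowers and 16.5% in roots, and 19.8% were higher in siliques and 19.5% in roots. The remaining member, GLDP2, had differences of -0.47 and -0.29. With separate intervals PGLP1 alone was lower in roots, 1 of 10 in each pair, where 1.01% of all loci were higher in flowers and 0.814% in siliques, and 0 were higher in roots, against 0.664% and 0.775%. At 4-fold 5 members were lower in roots than in flowers, where 12.1% of all loci were higher in flowers and 8.31% in roots. Against siliques 7 were lower, where 10.6% were higher in siliques and 9.11% in roots, and 0 members were higher in roots in either pair. The medians over the members were -2.59 against flowers and -2.93 against siliques. The pairs with roots share the root library, so these values are not independent of each other.

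The order of the enzymes by level was alike in the aerial organs and different in roots. Spearman's rho over the 10 members was 0.94 between leaves and flowers, 0.90 between leaves and siliques and 0.88 between flowers and siliques, but -0.03 between roots and leaves, -0.07 with flowers and -0.24 with siliques. These are descriptions over 10 genes, each with its length and sequence in common between libraries. In leaves the order from the top was SHM1, AGT1, GOX1, GLDT, GLDP1, HPR1, GOX2, GLDP2, GLYK and PGLP1. In roots it was GLYK, AGT1, GLDP2, GLDT, GOX2, GLDP1, SHM1, HPR1, GOX1 and PGLP1. The highest member exceeded the lowest by 10.4 times in leaves, 8.04 in flowers, 8.83 in siliques and 254 in roots. The value for roots rests on the split of PGLP1 from its identical copy, and with the copies summed (1.33 FPKM) it was 127. Summed, PGLP1 stood at 239.9 FPKM in leaves, rank 8 in place of 10 of the members, and stayed last in roots, and rho between roots and leaves was -0.22. The sum of the members was 0.775% of the FPKM of usable loci in leaves, 0.420% in siliques, 0.317% in flowers and 0.0833% in roots. Loci without a usable status, RBCS1A and RCA among them, are not in that base. RBCS1A stood at 71.9 FPKM in roots and 4855 in flowers, so the base lacks unequal amounts in the libraries. Whether neighbours in these orders differ beyond error cannot be said without replicates.

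By organ, 7 of the members had the order leaves, siliques, flowers, roots from high to low. GLDP2 had flowers above siliques, PGLP1 was highest in siliques and, as deposited, GLYK in roots. Over the 60 combinations of a member and an organ pair the authors' intervals were apart in 3, all of PGLP1 with roots. For PGLP1 these include flowers and roots, which are neighbours in its order, and no other neighbouring organs of a member had separate intervals. The loci most alike to the mean pattern of the members were found by the distance between log2(FPKM + 1) values centred on each locus, over the 4 organs, among 10413 loci of at least 20 FPKM in 1 organ. The nearest was PRPS20 (AT3G15190) at a distance of 0.078, with 21.4, 342, 149 and 196 FPKM. Others among the 10 nearest were AT3G10405 (0.108), AT1G04420 (0.113), EDA3 (AT2G34860, 0.114), PRPL35 (AT2G24090, 0.124), FdC2 (AT1G32550, 0.131), AT5G51110 (0.14), RPL24 (AT5G54600, 0.148) and AT1G76450 (0.15). The members themselves lay between 0.376 (GLDP1) and 3.68 (GLYK) from their mean, so the mean describes GLDP1 and GOX2 (0.656) best and GLYK least.

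The upstream sequences of the P-protein genes are shown because GLDP1 and GLDP2 encode the same subunit with different organ patterns. Each line gives the 250 bases before the annotated gene start in RefSeq, build TAIR10.1, 5′ to 3′ on the gene's strand, with matches to the motifs searched in capitals.
GLDP1: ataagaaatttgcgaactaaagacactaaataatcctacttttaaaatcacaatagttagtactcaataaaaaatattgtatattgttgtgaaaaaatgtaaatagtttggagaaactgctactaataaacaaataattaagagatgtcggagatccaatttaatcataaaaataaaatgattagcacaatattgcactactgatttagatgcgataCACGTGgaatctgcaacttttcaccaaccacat
GLDP2: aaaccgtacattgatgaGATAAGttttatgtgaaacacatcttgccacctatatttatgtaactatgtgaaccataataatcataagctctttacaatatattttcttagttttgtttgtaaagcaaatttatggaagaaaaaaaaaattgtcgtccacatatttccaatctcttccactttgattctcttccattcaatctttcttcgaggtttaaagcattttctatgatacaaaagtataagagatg
They lie at chr4:15931423-15931672 and chr2:11114292-11114541, both on the minus strand. The motifs searched on both strands were the G-box CACGTG, the I-box GATAAG, the GT1 core GGTTAA and the evening element AAATATCT, which do not overlap here. GLDP1 held a G-box 33 to 28 bases before its start and GLDP2 an I-box 233 to 228 bases before its start. Over the 10 members, 1 had a G-box, 1 an I-box and 0 either of the others. Of 27443 protein-coding genes, 6.49% had a G-box, 12.3% an I-box, 14.6% the GT1 core and 4.79% the evening element in the same window. A match is a description of letters only, and the annotated starts of GLDP1 and GLDP2 both lie further upstream than their rows in the table.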

How the data were processed

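RNA was sequenced from 4 organs, 1 library each. Per the labels' protocols, DNase-treated total RNA was made into TruSeq RNA v2 libraries and sequenced on an Illumina HiSeq system. Per the submitters' processing notes, TopHat and Cufflinks were used on TAIR10, and their versions are not named there. The authors' deposited table gives, per the file headers, an FPKM, an interval in FPKM and a text status for each locus. The confidence level of the interval, strand use and any scaling between libraries are not given there, so overlapping neighbours (AT3G14430 at GOX1, AT4G33000 at GLDP1) may share reads.

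Loci with status OK in all libraries (34071) and at least 1 FPKM in 1 organ (23477) were compared on log2(FPKM + 1) with Python 3.11.15 and pandas 2.3.3. With 1 library per organ no test was possible, and members past 2-fold were counted beside all compared loci. The first position of each locus was counted from 1. Table positions of all 10 members overlapped the same code in the TAIR10.1 reference, whose chromosomes are at least as long as the highest table position. Coding identities came from a global alignment (Biopython 1.88) of the longest annotated coding sequences. Symbols follow the choice of members and fixed lists. The reference has no symbol for GLDT and GLYK, and it exchanges the names mtLPD1 and mtLPD2 as first listed, which were corrected. All members and any gene of the fixed lists could be named, and the 10 nearest loci followed a distance rule, of which 1 is not reported here. The members and lists were chosen with earlier results of these data known. Alternatives were pseudocounts of 0.1 and 5 FPKM, no filter, 3 scalings, separate intervals and a 4-fold threshold. Summing duplicate rows and leaving out SHM1 were added after seeing the data.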

Additional observations from a re-analysis of the deposited data

How the results depend on the processing

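Counts of members past 2-fold in the 6 organ pairs were the same or within 1.5 times with pseudocounts of 0.1 and 5 FPKM, without the filter, with PGLP1 summed with its copy, with the GLYK rows summed and without SHM1. Separate intervals left 1 member in each pair with roots and 0 in leaves against flowers and against siliques. A 4-fold threshold left 0 in leaves against flowers and 0 against siliques, and 5 in roots against flowers. For leaves against siliques the count of 2 went to 4 with sums set to 1000000, to 6 with median-of-ratios scaling and to 4 with upper-quartile scaling. The cause was not tested. Median-of-ratios scaling moved the median of all compared loci in roots against leaves from 0.34 to 0.0015 and the share of 2-fold calls higher in roots from 63.7% to 47.5%. The share of calls higher in leaves went from 26.5% to 45.9% against flowers and from 33.2% to 43.8% against siliques, and that higher in flowers than siliques from 61.6% to 51.2%. No paired analysis was possible because each organ has 1 library.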
